A study of Mus musculus with 768 samples.

Results

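Single Schwann cells of the postnatal day 5 mouse sciatic nerve were compared within 1 state of maturation, according to whether they held transcripts of Pou3f1. Intermediate cells were taken as wells that expressed Ncmap, an early myelin gene, at 10 CPM or more (reads of a gene scaled to a common library total), kept Pmp22 below 30000 CPM and were not cycling. Wells with 5 or more Pou3f1 reads (Pou3f1-positive) were set against wells with 0 (Pou3f1-negative), among wells with at least 1500 detected genes and outside the plate corners. The rule found 149 intermediate wells among 655 retained wells and 768 wells in all. Of these, 120 were Pou3f1-positive, 12 were Pou3f1-negative, and 17 held 1 to 4 reads and were kept apart, so the comparison rests on 132 wells. The wells were chosen by their measured reads of Pou3f1, Ncmap, Pmp22 and 10 cell cycle genes, so the values of these genes are given as a description and were left out of every test.

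Pou3f1 encodes the POU-domain transcription factor Oct6, also called SCIP, which is expressed transiently in promyelinating Schwann cells, the cells that have sorted a single axon and are about to myelinate it. Together with Sox10 and the related factor Pou3f2 it drives Egr2, the master regulator of myelin and lipid synthesis genes, and its own level falls once myelination is under way. Cells lacking it stall at the promyelinating stage and myelinate late. In the mouse annotation (GENCODE, GRCm38) Pou3f1 lies at chr4:124656807-124660655 on the plus strand as a protein-coding gene of a single exon of 3849 bases, and no other gene of the table overlaps it.

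POU factors bind an octamer, ATGCAAAT. RefSeq promoter windows (GRCm38.p6, 250 bases before to 50 after a transcript start) were searched for these letters on both strands for Egr2, for the 2 genes that passed the main test (Timp2 and Timm22) and for the 5 that passed in immature cells. Of these 8 genes, 7 matched a window by symbol, and the exception was Csrp2. Among all 32851 windows, 570 (1.74%) held the octamer. It was found in 3 of 5 windows of Egr2, which overlap and share 1 match, and in none of the windows of Timp2, Timm22, Cldn19, Pllp, Bzw2 and Gsdme. The first 2 below are shown because Egr2 is the known target and Timp2 the gene past the test that also met the rule for named genes, with the octamer in capitals:
Egr2, chr10:67537619-67537918, plus strand: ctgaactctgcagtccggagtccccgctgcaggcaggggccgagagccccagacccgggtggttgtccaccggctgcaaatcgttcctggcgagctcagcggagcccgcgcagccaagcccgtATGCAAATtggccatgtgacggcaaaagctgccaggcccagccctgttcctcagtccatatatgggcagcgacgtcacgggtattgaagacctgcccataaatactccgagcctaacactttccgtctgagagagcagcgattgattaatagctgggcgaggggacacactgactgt
Timp2, chr11:118355362-118355661, minus strand: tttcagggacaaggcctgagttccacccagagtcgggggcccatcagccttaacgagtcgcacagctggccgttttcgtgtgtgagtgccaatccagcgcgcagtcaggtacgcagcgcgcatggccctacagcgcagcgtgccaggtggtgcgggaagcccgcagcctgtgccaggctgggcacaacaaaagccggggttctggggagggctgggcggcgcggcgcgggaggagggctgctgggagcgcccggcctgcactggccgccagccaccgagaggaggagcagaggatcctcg
The Egr2 match starts at base 124 of its window. A match is a match of letters and was not tested as a binding site.

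The cells came from P0Cre:ReYFP:βAct-DsRed mice on the C57BL/6J background, with the Cre driver active in the Schwann cell lineage, a conditional YFP reporter and a ubiquitous DsRed reporter. YFP-positive cells were sorted singly into 2 plates of 384 wells, and each plate pooled the nerves of 1 male and 1 female mouse, so the plate is the replicate and every group below has n = 2. No cell was treated, and all groups share genotype and age. The plates held 226051000 and 203322000 reads in genes to 6 significant digits, with a median of 520281 and 486849 reads per well over all wells. Libraries were made with a Smart-seq2 protocol without molecular identifiers, so intervals on shares cover counting error only. No pair of wells held identical values.

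Pou3f1-positive cells were the large majority of intermediate cells. They made up 73.4% of intermediate wells in plate 1 (58 of 79, exact 95% binomial interval 62.3 to 82.7) and 88.6% in plate 2 (62 of 70, 78.7 to 94.9). Pou3f1-negative cells made up 11.4% (9 of 79, 5.34 to 20.5) and 4.29% (3 of 70, 0.893 to 12.02). In immature wells, which lack Ncmap, 30.2% and 28.7% held no Pou3f1 read, and in Pmp22-high myelinating wells 19.4% and 12.4% did. In cycling wells the shares were 25% and 40%. The share without Pou3f1 was thus lowest in intermediate wells in both plates. Its interval overlapped that of the myelinating wells in each plate and that of the cycling wells in plate 1. These shares follow from the rule, and no test was run on them.

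**Figure D1:**
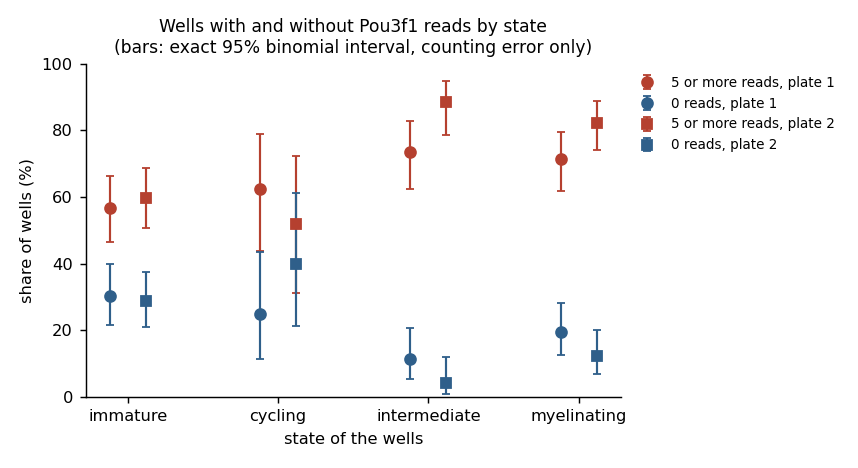
Share of wells (%, y axis) with 5 or more Pou3f1 reads (red) and with 0 (blue) in each state (x axis), for plate 1 (circles) and plate 2 (squares), with exact 95% binomial intervals. The blue points are lowest in intermediate wells, at 11.4% and 4.29%, against 28.7% to 30.2% in immature wells.

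Summed over the wells of a state, Pou3f1 stood at 153.8 CPM ± 5.91 (SD, n = 2) in intermediate, 133.9 ± 31.0 in immature, 90.9 ± 49.8 in cycling and 81.4 ± 14.1 in myelinating wells. The ranges of neighbouring states in this order overlapped between plates, whereas both myelinating sums lay below both intermediate and both immature ones. Within the Pou3f1-positive class the level varied widely between cells. The median well held 183 CPM in plate 1, with a range of 7.85 to 927, and 159 CPM in plate 2, with a range of 18.5 to 532. The border between the classes was thin: 2 wells had exactly 5 reads, 3 had 4 and 6 had a single read. At the other limits, the wells just inside and just outside held 11.4 and 7.92 CPM of Ncmap, 29896 and 30776 CPM of Pmp22, and 1657 and 1474 detected genes.

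Read depth differed between the classes. Pou3f1-negative wells held a median of 262019 reads in plate 1, against 550565 in the positive wells, 2.10 times more. In plate 2 the medians were 469574 and 557544, a ratio of 1.19. Detected genes per well hardly differed, with medians of 3318 and 3339 in plate 1 and of 3530 and 3702 in plate 2. Had each negative well expressed Pou3f1 at the median CPM of its plate's positive wells, it would have held 9.60 to 291 reads. By sampling of reads alone, a count of 0 allows up to 1.89 CPM in the deepest negative well and 57.3 CPM in the shallowest. Neither figure covers transcripts lost before sequencing, so a count of 0 cannot be read as absence of expression. Such loss was not tested. When wells were thinned to 200000 reads, 15.6% and 7.69% of intermediate wells held no Pou3f1 read.

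**Figure D2:**
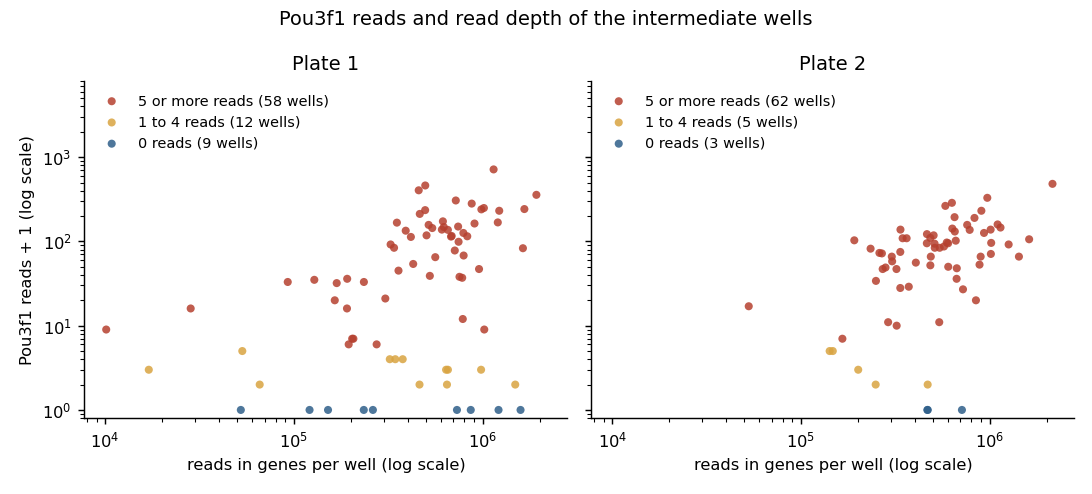
Pou3f1 reads plus 1 (y axis, log scale) against reads in genes (x axis, log scale) for each intermediate well, by plate and Pou3f1 class. Negative wells lie at 52329 to 1586624 reads in plate 1 and at 467118 to 712358 in plate 2, within the range of the positive wells.

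The classes also differed in how far they lay along the myelin axis that the gate used. Pmp22, a compact myelin protein gene, had a median of 11067 CPM in positive and 16680 CPM in negative wells of plate 1, and of 10621 and 22859 CPM in plate 2. Ncmap was likewise lower in positive wells, with medians of 1502 against 2918 CPM and of 1377 against 1708 CPM. Of the 12 negative wells, 5 had more Pmp22 than at least 86.1% of the intermediate wells of their plate, and 1 had more than 80%. The median Pou3f1 level was lower with each step across 3 equal bins of intermediate wells ordered by Pmp22, from 151 to 135 to 65.6 CPM in plate 1 and from 202 to 144 to 80.8 CPM in plate 2.

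**Figure D3:**
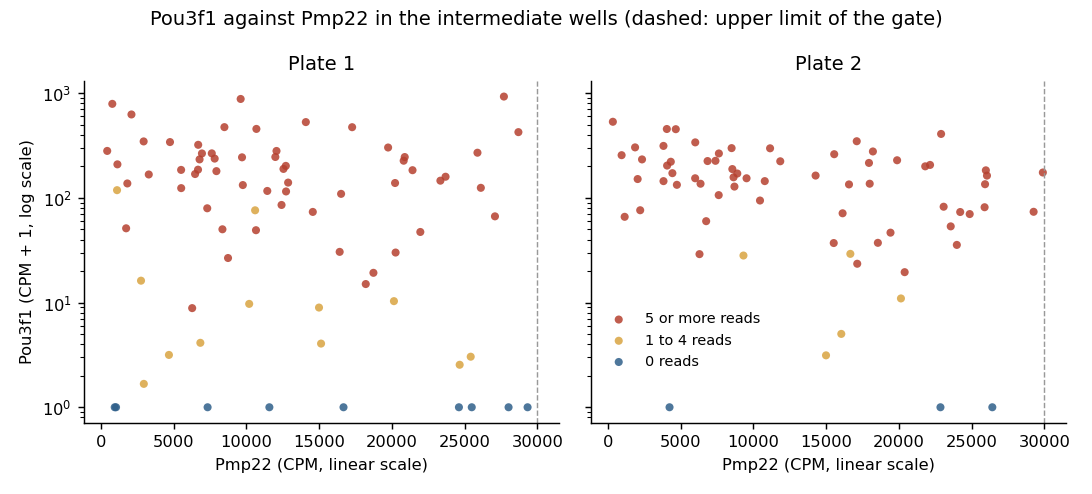
Pou3f1 (CPM + 1, y axis, log scale) against Pmp22 (CPM, x axis, linear) in each intermediate well, by plate and Pou3f1 class, with the upper Pmp22 limit dashed. Of the 12 negative wells, 6 lie at 22859 CPM of Pmp22 or more and 3 at 4239 CPM or less.

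A pair of the 12 negative wells stood apart, both in plate 1. They held 1821 and 1886 detected genes, 1046 and 955 CPM of Pmp22, and Ncmap at 30.5 and 19.1 CPM, the latter from a single read. The second had 19 reads of Ngfr, the neurotrophin receptor of immature cells, and none of Sox10, the factor that specifies the Schwann cell lineage. A minimum of 2500 genes removed both. Sox10 was detected in the other 11 negative wells, but by a single read in the first of the pair. Mbp, a major myelin protein gene, was detected in all 12. The first of the pair was also the single well that held most of the negative Scn7a and Cdk6 reads of plate 1, given below.

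Timp2, which encodes a secreted inhibitor of matrix metalloproteinases, was higher in Pou3f1-positive cells. Its level was 147 and 222 CPM in the positive sums of plates 1 and 2, and 6.52 and 4.24 CPM in the negative sums. Both positive values lay far above both negative ones, and the wells with 1 to 4 reads, at 171 and 213 CPM, lay with the positive cells. The log2 difference was 4.98 (SE 0.559, adjusted p = 0.0134, edgeR quasi-likelihood test with Benjamini-Hochberg adjustment). Timp2 was detected in 75 of 120 positive and in 3 of 12 negative wells, which held 12, 22 and 7 reads. At 200000 reads per well it was detected in 68 of 108 and in 2 of 9 wells. The gene lies at chr11:118301069-118355740 on the minus strand.

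The only other gene to pass was Timm22, a subunit of the mitochondrial inner membrane translocase, which fell under the 50 CPM set for named genes and was singled out after its values were seen. It stood at 78.4 and 88.3 CPM in the positive sums and was represented by 1 read in all 12 negative wells, against 6218 in the positive wells (adjusted p = 0.0134, edgeR). The ratio of its read shares, pooled over plates, was 574, with an exact 95% counting interval of 103 to 22667. That interval takes amplification copies as independent reads and leaves out the spread between wells and plates. It therefore does not bound the difference between the classes. It was detected in only 41 of 120 positive wells. In all, 2 of 13656 genes tested passed at an adjusted p of 0.05 (0.0146%), both higher in positive cells and none lower, while 2289 (16.8%) had an unadjusted p below 0.05 and DESeq2 called 2069 genes on the same sums.

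Both calls depended on the positive sums and on the groups that shared the estimate of the spread. The negative sums held 9 and 3 wells, and their spread was estimated together with that of sums of up to 122 wells. The adjusted p values therefore do not measure the spread of so few wells on its own. Where 1 sum was left out, the lone sum of its class was assumed to vary like the other groups. For Timp2 the edgeR adjusted p was 0.0602 and 0.181 without the positive sum of plate 1 or of plate 2, 0.178 with only the 4 compared sums, 0.199 below 15000 CPM of Pmp22, 0.0613 in wells of 400000 reads or more, and 0.310 with wells paired on reads, genes and Pmp22, with the log2 difference between 3.17 and 5.86 over 22 alternative settings. Over those settings the highest edgeR adjusted p was 0.386 for Timp2 and also for Timm22, which did not pass in 6 of them. With 12 positive wells paired to the negative ones on reads and genes alone, 4 of 12761 genes passed (0.0313%). Timp2 and Timm22 were higher (0.0157%) and Mrps35 and Kdelr3 lower (0.0157%), the last pair named after their values were seen. Mrps35 and Kdelr3 had log2 differences of -14.8 and -14.5 there, against -1.73 and -0.60 in all wells (edgeR adjusted p = 0.222 and 0.729). In plate 2 Kdelr3 was at 47.7 CPM in the positive and 47.3 CPM in the negative sum of all wells. A single well held 97.0% and 100% of the negative reads of Mrps35 and 97.7% and 100% of those of Kdelr3.

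**Figure D4:**
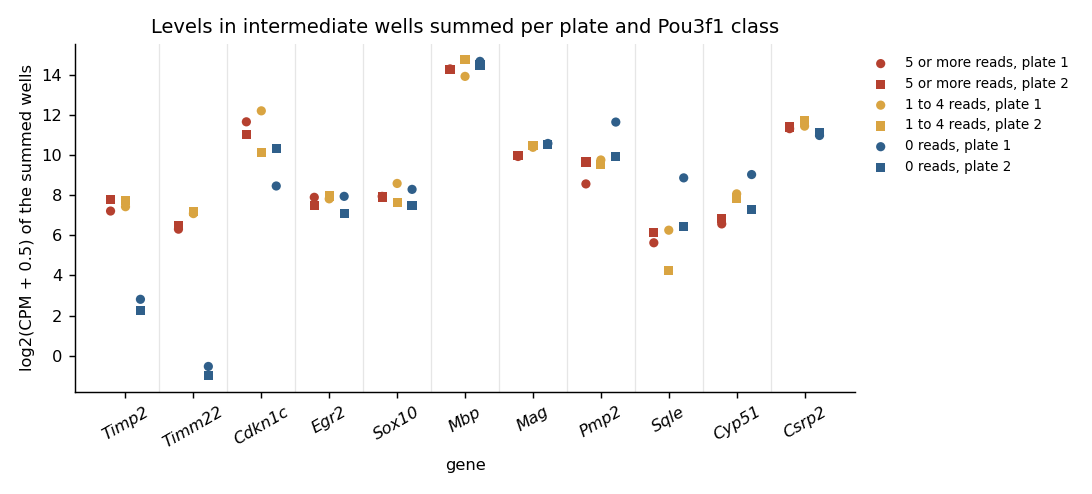
Level of 11 genes (x axis) in intermediate wells summed per plate and Pou3f1 class, as log2(CPM + 0.5) on the y axis, for plate 1 (circles) and plate 2 (squares). Timp2 and Timm22 separate the negative sums (blue) from the others, whereas Egr2, Sox10, Mbp and Csrp2 lie close together in all 3 classes.

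The next 9 genes higher in positive cells, ordered by p and holding in both plates, did not pass. They were Kars (lysyl-tRNA synthetase), Ap3s1 (a subunit of the AP-3 adaptor), Mrps26 (a mitochondrial ribosomal protein), Idh2 (mitochondrial isocitrate dehydrogenase), 2310039H08Rik, Sptan1 (alpha spectrin), Wbp1, Gstm5 (a glutathione transferase) and Fam32a. Their log2 differences lay between 2.87 and 6.32 and their adjusted p between 0.0501 and 0.0886. Detection was sparse, from 49 (Idh2) to 73 (Fam32a) of 120 positive wells and from 2 (Wbp1) to 5 (Sptan1) of 12 negative wells. All reached the mean of 50 CPM through the positive sums. Kars held 139 and 128 CPM in positive and 0.383 and 3.64 CPM in negative sums. Sptan1 held 84.7 and 97.2 against 7.09 and 16.98 CPM.

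No gene passed as lower in positive cells, and the 10 named by the same order had edgeR adjusted p values from 0.102 to 0.136. Sparc, a matrix glycoprotein made in quantity by Schwann cells, was at 9895 and 9873 CPM in positive and 12168 and 12548 CPM in negative sums, a log2 difference of -0.37. Npc2, a lysosomal cholesterol carrier, was at 497 and 555 against 983 and 1002 CPM. Kif5b (kinesin heavy chain), Vapa (a contact site protein of the endoplasmic reticulum) and Idh3b (a subunit of mitochondrial isocitrate dehydrogenase) also had lower values in the positive sums of both plates. For Vapa 1 well held 79.0% and 67.6% of the negative reads. Slc27a1, a fatty acid transporter, was at 117 and 144 against 1830 and 401 CPM, with 96.2% of the reads of the negative sum of plate 1 in a single well. For St7l, at 31.1 and 44.9 against 1253 and 69.1 CPM, a single well held 89.0% and 100% of the negative reads. For Sfrp5, a secreted Wnt antagonist, 1 well held 77.9% of the reads of the negative sum in plate 1 and a single well held all of them in plate 2. Pmp2, a fatty acid binding protein of myelin, was at 376 and 799 against 3179 and 969 CPM, and 1 well held 57.6% and 87.9% of its negative reads. Gm37389 overlaps Pmp2 and gave nearly the same values, so the pair cannot be told apart.

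The fixed gene lists were set against this background. No member of any list passed in either direction. The median log2 difference over all genes tested was 0.65, and over the 3480 genes with a mean of 50 CPM or more over the 4 sums it was -0.09, with 54.5% of them below 0. With 12 positive wells paired to the 12 negative wells on reads and detected genes, the median over all genes was 0.00 and that of the 3480 genes -0.17. When Pmp22 was added to the pairing, the median of the 3480 genes was -0.19. List medians below are given for members of 50 CPM or more unless all members are named. That mean can be reached through 1 class or even 1 well, so these medians describe the members and support no difference.

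Among markers of promyelinating cells, Cdkn1c, which encodes the cell cycle inhibitor p57Kip2, was at 3205 and 2063 CPM in positive and 350 and 1286 CPM in negative sums (log2 difference 1.73, SE 0.694, unadjusted p = 0.0290, edgeR adjusted p = 0.238). The positive sums were higher in both plates, but single wells overlapped fully, from 0 to 23344 CPM in positive and from 0 to 2652 CPM in negative wells. Cd63, a tetraspanin, was at 2656 and 2577 against 1865 and 1854 CPM, with an edgeR adjusted p of 0.231. Lgals3, a galectin of the same list, rested on 1 positive well of plate 2 that held nearly all of its reads, and was at 0 in the other 3 sums. Nipal1, a magnesium transporter, was at 389 and 322 against 273 and 37.0 CPM. Ezr (ezrin) was at 437 and 383 against 467 and 450 CPM and Rap2b, a small GTPase, at 30.1 and 46.3 against 111 and 24.9 CPM. Of these 6 markers 2 were below 0 in the fit, with a median of 0.73. With paired wells 3 were below 0 and the median was -0.01, and with wells also paired on Pmp22 it was -0.11.

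None of the 16 transcription factors that act in promyelinating cells passed the test. An edgeR unadjusted p below 0.05 was reached by 4, all higher in positive cells. Over all 13656 genes tested it was reached by 2087 as higher and by 202 as lower. With wells paired on reads and genes, 3 members were higher and 1 lower at that p, against 1001 and 1101 of all 12761 genes. With wells also paired on Pmp22, 2 were higher and 0 lower, against 928 and 1053 of all 12761 genes. Egr2 was at 237 and 180 CPM in positive and 244 and 133 CPM in negative sums, a log2 difference of 0.04 (SE 0.484). It was detected in 108 of 120 positive and 10 of 12 negative wells. Sox10 was at 244 and 238 against 311 and 180 CPM, a difference of -0.12 (SE 0.464). Pou3f2, the paralog that can stand in for Pou3f1, was at 39.3 and 29.5 against 42.6 and 86.1 CPM. For this gene 1 well held 92.8% of the negative reads in plate 1 and a single well held all of them in plate 2. For Egr2 and Sox10 both positive sums lay between the negative ones, and for Pou3f2 both lay below them. Tead1, a DNA-binding partner of Yap and Taz, was at 167 and 139 against 30.3 and 80.7 CPM, and Yy1, a zinc finger factor that acts on Egr2, at 65.6 and 50.5 against 2.88 and 0 CPM, with adjusted p values of 0.262 and 0.145. The median difference was 0.04 over the 7 members of 50 CPM or more and 1.16 over all 16.

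Inhibitors of myelination, such as Jun and Id2, had a median difference of 0.94 over 5 members of 50 CPM or more, with 1 of them below 0 in plate 1 and 4 in plate 2, and a median of -0.76 with paired wells. Over all 14 members it was 1.01. Egr1 was at 191 and 239 against 91.4 and 129 CPM, with an adjusted p of 0.179. Jun was at 544 and 316 against 112 and 325 CPM, and Id2 at 922 and 829 against 599 and 2119 CPM, so both went opposite ways in the plates. Among the 24 signals upstream of Pou3f1, which carry axonal neuregulin, laminin and cyclic AMP cues into the cell, the 9 members of 50 CPM or more had a median of -0.21 and all 24 one of 0.54. Adgrg6, the receptor that raises cyclic AMP and is needed to switch Pou3f1 on, was at 34.3 and 21.3 CPM against 2.49 and 0 CPM (edgeR adjusted p = 0.156). Erbb2 and Erbb3, the neuregulin coreceptors, were at 116 and 91.8 against 1.34 and 37.6 CPM and at 127 and 161 against 84.7 and 138 CPM.

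Compact myelin genes had slightly lower values in Pou3f1-positive cells, and none passed the test. Of the 6 compact myelin members not used by the gate, 5 were below 0 in each plate, with a median of -0.40 beside -0.09 for all genes of that level. Mbp was at 19896 and 19736 CPM in positive and 25816 and 22780 CPM in negative sums (log2 difference -0.36, SE 0.175, edgeR adjusted p = 0.334). Mal, a lipid raft protein, was at 2470 and 2273 against 3108 and 3002 CPM (adjusted p = 0.219). Among junction and non-compact myelin genes, Mag, the adhesion molecule of the inner myelin face, was at 969 and 1002 against 1519 and 1462 CPM (adjusted p = 0.357), while Prx (periaxin) differed by 0.00 (SE 0.225), and the 13 members of 50 CPM or more had a median of -0.24. When wells were also paired on Pmp22, the compact myelin median was -0.02.

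Cholesterol synthesis genes had lower values in Pou3f1-positive cells of plate 1, but not of plate 2, and the difference between plates was not tested. In the fit across plates 19 of all 22 members were below 0, with a median of -1.26, where 31.7% of all genes tested were below 0, with a median of 0.65. An unadjusted p below 0.05 was reached by 5 members, all lower, and by 2289 of all genes (16.8%), 202 of them lower. In plate 1, 21 of 22 were below 0, with a median log2 ratio of -2.00, against 3657 of 13656 genes and a median of 0.59. In plate 2, 8 of 22 were below 0, with a median of 0.38, against 3463 genes and a median of 0.94. Over the 18 members of 50 CPM or more the medians were -1.23 in the fit, -2.00 in plate 1 and 0.25 in plate 2. Sqle (squalene epoxidase) was at 48.9 and 69.2 CPM in positive and 463 and 86.7 CPM in negative sums. Cyp51 (lanosterol demethylase) was at 94.1 and 114 against 519 and 154 CPM. Both were among the 8 members below 0 in plate 2. There, 1 well held all the negative reads of Sqle and 1 well held 95.7% of those of Cyp51. Summed over the list, the median well held 1753 CPM in positive and 6614 CPM in negative wells of plate 1, and 1716 and 1633 CPM in plate 2. The ranges overlapped, at 8.83 to 14031 CPM against 1050 to 20278 CPM in plate 1. Ebp and Dhcr7, which act late in the pathway, were above 0 in the fit, at 2.40 and 1.15. In a fit across plates with wells paired on reads, genes and Pmp22, 17 of 22 were below 0 and the median was -1.15. Of all 12761 genes of that fit, 42.3% were below 0, with a median of 0.

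Fatty acid and sphingolipid synthesis genes had a median of -0.44 over 13 members, with 10 below 0 in plate 1 and 6 in plate 2. Within the list, Elovl7, an elongase of very long chain fatty acids, went the other way at 118 and 123 against 16.9 and 37.0 CPM (log2 difference 2.17, SE 0.617, edgeR adjusted p = 0.136).

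**Figure D5:**
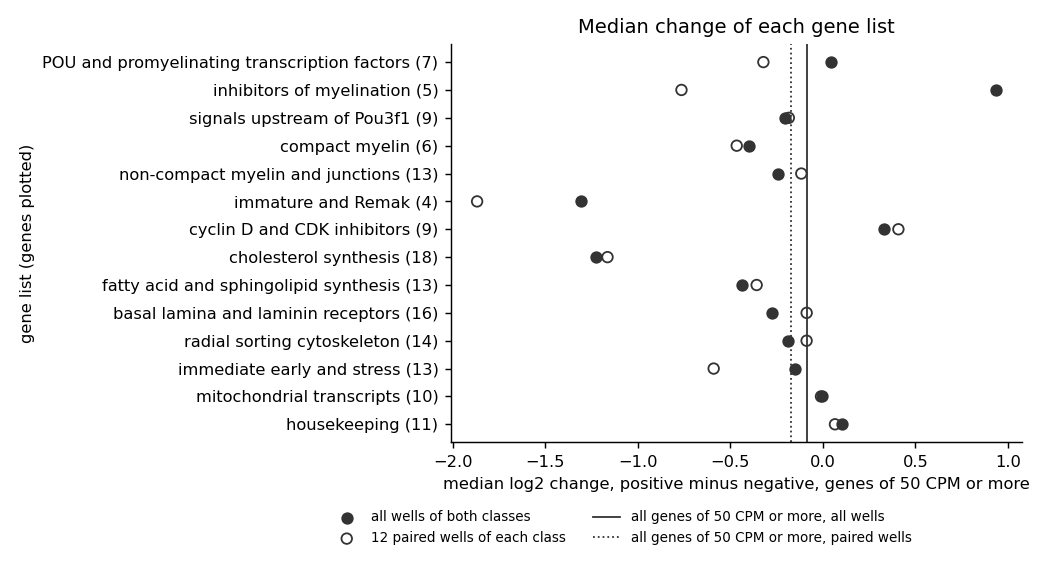
Median log2 difference, positive minus negative (x axis), of the members of 50 CPM or more of each gene list (y axis, number of members in brackets), with all wells (filled) and with 12 paired wells of each class (open). Vertical lines give the medians of all genes of that level, -0.09 and -0.17. Cholesterol synthesis lies at -1.23 and -1.16, while the list of inhibitors of myelination changes sign between the 2 sets of wells.

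Of the 12 genes of immature and Remak cells tested, 4 were below 0, with a median of 1.71 in all wells and of -0.45 with paired wells. The 4 that reached 50 CPM had a median of -1.31, and of 2.10 with a minimum of 2500 genes, where both wells of low gene number were gone. Scn7a, a sodium channel of non-myelinating cells, was at 1.21 and 0.335 CPM in positive sums, at 564 CPM in the negative sum of plate 1, all from 1 well, and at 0 in plate 2. Ngfr was at 0 and 47.2 against 3.64 and 1.21 CPM. Cyclin D and CDK inhibitor genes had a median of 0.33 over 9 members. Cdk6 was at 187 and 87.1 against 4737 and 35.2 CPM, with 94.5% of the reads of the negative sum of plate 1 in a single well. Basal lamina and laminin receptor genes had a median of -0.28 over 16 members, and the radial sorting cytoskeleton one of -0.19 over 14. Immediate early and stress genes, which can be induced during dissociation, had a median of -0.15 over 13 members. Fos was at 3345 and 3678 against 2807 and 5336 CPM. Mitochondrial transcripts and housekeeping genes lay at -0.01 and 0.10.

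Both classes carried the marks of the Schwann lineage and little of other cells. At least 3 of 8 lineage markers were found with 5 or more reads in all 120 positive and in 11 of 12 negative wells. No positive or negative well met this rule for endothelial, immune, pericyte or muscle markers, 1 positive well met it for neuronal ones, and 4 of 120 positive and 1 of 12 negative wells met it for perineurial markers. Fibroblast-like markers met it in 92 of 120 positive and 9 of 12 negative wells, with a summed level over 8 genes of 2159 and 1828 CPM in positive and 2297 and 3430 CPM in negative sums. Its 3 collagens, which Schwann cells also express, gave nearly all of it, Pdgfra and Clec3b were at 0 in all 4 sums, and Lum and Pi16 were at 0 in both negative ones. Col1a1 was at 347 and 358 against 520 and 874 CPM (edgeR adjusted p = 0.142). The part of these markers in the results was not tested.

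The same split was then made in immature and myelinating cells, whose wells had not been used to form the intermediate classes. In immature wells, 133 with 5 or more Pou3f1 reads were set against 67 with 0. The positive wells were deeper, with medians of 488952 and 478376 reads against 396420 and 414884. Their median detected genes were 3026 and 3269 against 2715 and 3119. Median Pmp22 was lower in them, at 1563 and 1649 against 2564 and 2815 CPM. The part of Pmp22 in the calls below was not tested. Csrp2, a LIM-domain protein, was at 756 and 502 CPM in positive and 65.5 and 94.8 CPM in negative immature cells (log2 difference 2.92, SE 0.263, edgeR adjusted p = 4.62e-05). Cldn19, a tight junction claudin of myelin, was at 503 and 465 against 125 and 158 CPM (1.72, SE 0.256, edgeR adjusted p = 0.0248). Pllp, the compact myelin protein plasmolipin, rose by 1.41, Bzw2 by 1.36 and Gsdme, a gasdermin, by 2.40 on the log2 scale, with edgeR adjusted p values of 0.0432, 0.0304 and 0.0429. The positive sums lay above the negative ones in both plates for all 5 genes. These were the 5 of 13643 genes that passed (0.0366%), named here after their values were seen, none was lower, and 440 (3.23%) had an unadjusted p below 0.05. DESeq2 called 204.

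In myelinating wells, 170 against 35, no gene passed by edgeR, 361 (2.65%) had an unadjusted p below 0.05, and DESeq2 called 231. Of the 20 genes named for intermediate cells, 8 kept their direction in immature and 9 in myelinating cells. Timp2 was at 259 and 190 CPM in positive and 354 and 320 CPM in negative immature cells, and at 83.7 and 87.9 against 22.1 and 81.2 CPM in myelinating cells.

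The difference between states was tested in a fit of 20 sums that kept the 3-well negative sum of plate 2. Of 13616 genes, 2 passed for intermediate against immature cells (0.0147%), 1 in each direction (0.00734%), and 1210 (8.89%) had an unadjusted p below 0.05. The effect of Csrp2 was smaller in intermediate than in immature cells by 2.68 on the log2 scale (SE 0.351, adjusted p = 0.00462), and that of Timp2 larger by 5.59 (SE 0.849, adjusted p = 0.0181). In intermediate cells Csrp2 was high in both classes, at 2531 and 2681 CPM in positive and 2000 and 2212 CPM in negative sums. Cldn19, Pllp, Bzw2 and Gsdme had log2 differences of -0.29, -0.38, -0.33 and -0.14 there, and their differences between states did not pass, at adjusted p values of 0.109, 0.0764, 0.0764 and 0.246. No gene passed for intermediate against myelinating cells by edgeR, with 1089 (8%) below an unadjusted p of 0.05.

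Across intermediate wells thinned to 200000 reads (64 in plate 1 and 65 in plate 2), the genes whose log2 CPM followed Pou3f1 most closely were Klf13 (mean Spearman rho 0.334), a Krüppel-like factor, Kdm6b (0.266), a histone H3K27 demethylase, Ints5 (0.263), Aga (0.262) and Anapc11 (0.260). These correlations were weak, and over 3486 genes the rho values of the plates correlated at r = 0.0693, so they are a description of these wells. Klf13, first in this order, was at 1328 and 926 CPM in positive and 1833 and 1609 CPM in negative sums, which is the opposite direction. Of 18 cholesterol synthesis genes, 16 had a rho below 0 in both plates, where 27.8% of all genes did. Mag was at -0.379 and -0.254. Pmp22 followed the summed cholesterol synthesis genes with a rho of 0.738 and 0.736. Pou3f1 was paired with Pmp22 at a rho of -0.184 and -0.305, and with the summed cholesterol synthesis genes at a rho of -0.295 and -0.234. The wells share plates, animals and the depth of thinning, and Pmp22 was part of the rule.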

How the data were processed

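Single YFP-positive Schwann cells of 2 plates were profiled with Smart-seq2 and deposited as 1 table of raw read counts per gene and well. Per the labels, the submitters' processing notes name bcl2fastq, STAR 2.6.1c, featureCounts and GRCm38.p5, while the study's methods give another STAR version and another build for these plates. The authors counted reads without molecular identifiers, so amplification copies are counted. The table held 25700 genes, of which 25587 matched GENCODE by identifier, and the 113 others took 0.0916% of reads. Corner wells and wells under 1500 detected genes were left out, as were cycling wells with 5 or more reads in at least 3 of 10 cell cycle genes. Members and gene lists were chosen with earlier results of these data known.

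Reads were summed per plate and group, since cells of a plate are not replicates. The main test was edgeR 4.0.16 (glmQLFit and glmQLFTest, TMM, filterByExpr, Benjamini-Hochberg at 0.05, two-sided) in R 4.3.3 on 12 sums: positive, 1 to 4 reads and negative intermediate, immature, myelinating and cycling wells of each plate. These share 1 estimate of the spread over 6 residual degrees of freedom, although they hold from 3 wells (negative, plate 2) to 122 wells (immature, plate 2). The same split in immature and myelinating wells used 18 sums. The design left out any group with fewer than 5 wells in a plate, which removed the negative intermediate sums there, so the difference between states came from a 20-sum fit added after seeing the data. The 13 genes of the rule were left out of the tests. Log2 ratios of single plates added 0.5 CPM. DESeq2 1.42.0 and limma 3.58.1 served as alternatives, and the fits were tested on simulated data. Sums of the same plate share animals. The correlation of deviations between positive and negative sums of a plate was -0.0012 over 2002 genes. For other pairs of groups it ranged from -0.0747 (cycling and negative) to 0.1809 (immature and myelinating), with 0.1538 for immature and positive. The plate was a block in an alternative fit. Named genes had a mean of 50 CPM or more over the 4 sums and 1 direction in both plates: up to 12 past the threshold in each direction, filled to 10 by smallest p where fewer than 10 passed, with some genes skipped that are not reported here. Genes singled out beyond this rule are said to be. No doublet caller was run, and an alternative left out the 5% of wells with most genes.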

Additional observations from a re-analysis of the deposited data

Results flagged for a closer look

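Csrp2 was set apart because its difference between Pou3f1-positive and Pou3f1-negative cells differed between states. The log2 difference was smaller in intermediate than in immature cells, at -2.68 for intermediate minus immature (edgeR adjusted p = 0.00462), with 0.26 in intermediate and 2.92 in immature cells. The positive sum was above the negative one in both plates in either state.

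Timp2 was set apart in the same way, with 5.59 for intermediate minus immature (edgeR adjusted p = 0.0181). Its value was higher in positive cells in both plates in intermediate cells, and lower in both plates in immature cells, where it did not pass. Both tests rest on a negative sum of 3 wells in plate 2, and the values with the plate as a block were -2.65 and 5.54.

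Among wells that the gene minimum removed, outside the corners, 8 of 105 (7.62%) held 5 or more Pou3f1 reads, with a median of 798 reads per well in all 105. In the 8 corner wells none did.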

How the results depend on the processing

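Timp2 and Timm22, the 2 calls in intermediate cells, both passed in 15 of 22 alternative settings. The count of calls stayed at 2 with RLE factors, with the plate as a replicate block, without the wells with most genes, without columns 8 and 16, and, added after seeing the data, with positive wells kept within the Pmp22 range of the negative ones. It was 2069 with DESeq2, 369 with no filter on low counts, 419 with equal weight per well, 665 for 1 or more reads against 0, 184 for 50 CPM or more against 0, 128 below 15000 CPM of Pmp22, 38 with a minimum of 2500 genes, 21 with wells thinned to 200000 reads, 4 with wells paired on reads and genes, 1 when also paired on Pmp22, and 0 with the 4 compared sums, with the 6 intermediate sums or with wells of 400000 reads or more. Leaving out 1 sum gave 0 to 812 calls, with 0 without either positive sum, 812 without the negative sum of plate 1 and 330 without that of plate 2. With DESeq2, 1834 of the calls were higher. RLE factors moved the median log2 difference of all genes from 0.649 to 0.467. The cause of these shifts was not tested. Below 15000 CPM of Pmp22, which leaves 4 and 1 negative wells, Pmp2 was at 0.0427 and Gm37389 at 0.0508, both above 0. The other named intermediate genes kept their sign in every setting.

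In immature cells the 5 calls were 5 with the plate as a replicate block, 13 with thinned wells, 204 with DESeq2, 2 in the 20-sum fit and 4 to 9 without 1 sum, where 9 came without the negative sum of plate 1. Without 1 sum, 2 or 3 of the 5 genes still passed. Csrp2 passed in all 8 alternatives. In myelinating cells the 0 calls were 0 with the block, 2 with thinned wells, 231 with DESeq2 and 0 to 3 without 1 sum, 3 without the positive sum of plate 2. The block changed no call on the difference between states, at 2 and 0 genes. The shares of intermediate wells by Pou3f1 class moved by less than the spread between plates.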

Other observations

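The 17 intermediate wells with 1 to 4 Pou3f1 reads, 12 in plate 1 and 5 in plate 2, were on neither side of the main comparison. Their 2 sums entered its estimate of the spread, and they joined the positive wells in the alternative of 1 or more reads against 0. Pou3f1 was at 4.13 and 9.93 CPM in their sums. Timp2 was detected in 11 of them and Timm22 in 7, and their Cdkn1c level was 4684 and 1117 CPM. Their median read depth was 419782 and 201054. At least 3 lineage markers were found with 5 or more reads in 15 of 17. One of these wells held 94.1% of the Cdk6 reads of its plate's sum, at 91412 CPM, close to the 89081 CPM of the single Cdk6-high negative well. With wells paired on reads, genes and Pmp22, Ccn1, chosen after its values were seen and known as a secreted matricellular protein, was the single call, at log2 -8.33 (edgeR adjusted p = 0.000239). In all wells Ccn1 was at 188 and 91.3 CPM in positive and 262 and 659 CPM in negative sums, with an edgeR adjusted p of 0.142.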
